A study of Mus musculus with 12 samples.

Results

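Annexins are proteins that bind phospholipid membranes in the presence of calcium through a conserved core of repeats. Their N-terminal regions differ and bind different partners, so that each annexin acts in its own part of membrane traffic, membrane repair or exocytosis. Sorcin, the product of Sri, is a small calcium-binding protein of the penta-EF-hand family and is known to bind the N-terminal regions of annexin A7 and annexin A11. In insulin-secreting beta cells calcium entry triggers the fusion of secretory granules with the plasma membrane, a step in which several annexins have been studied. The RNA of 8 annexin genes, Anxa1 to Anxa7 and Anxa11, was followed here in islets of Langerhans. They were chosen by gene symbol alone: a probe was a member if its symbol in the deposited intensity table, or the updated symbol in the authors' deposited table, was one of the 8. The 8 genes, out of 31508 gene names in that table, took up 17 of the 45281 probes on the array, and the updated symbols added 0 to those that the intensity table named.

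The study asked how sorcin overexpression alters the beta cell transcriptome. SRI-tg10 mice (n = 6) carried 10 copies of a transgene in which a tetracycline-inducible promoter drives SRI cDNA and luciferase, with a transactivator under the rat insulin promoter that directs expression to beta cells. Control mice (n = 6) were their littermates, and the labels do not name the alleles they carried. Every sample shares one growth label, which describes the double transgenic animal. All 12 mice were male C57BL/6 animals, 8 weeks old, on a diet with 60% fat begun at 4 weeks. The design text gives doxycycline (500 mg/L) to both groups, whereas the treatment label names it for SRI-tg10 mice. The tissue label and the extraction protocol describe islets separated on a density gradient, and the source name reads beta cells. Each array came from 1 numbered mouse. Sample titles begin with A or B, each letter covering 3 mice of each group, and no label explains the letter.

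Between 16271 and 20094 probes per array were detected, Control replicate 5 having the fewest, and array pairs correlated at 0.918 to 0.983 with no identical pair. Sri averaged 14.53 ± 0.89 in SRI-tg10 islets and 9.86 ± 0.22 in Control islets on its brightest probe (normalized log2 intensity, SD, n = 6 each). Its 3 detected probes gave folds of 17.4, 25.5 and 37, which can be understated because the brightest levels lie near the top of the scale at 15.17. SRI-tg10 replicate 4 reached 12.72, against at least 14.81 in the other SRI-tg10 mice. The preparations held both endocrine and exocrine RNA: Ins1 averaged 14.90 in SRI-tg10 and 14.93 in Control islets, and the acinar gene Cela3b averaged 15.08 and 14.96 in the same order. Both probes reached 15.17, the top of the scale, so a difference between groups can be understated and the 2 levels do not compare cell content. No cell type marker list out of 11 held a gene past an adjusted p of 0.05 between the groups (limma). At an unadjusted p under 0.05 there were 3 of 13 beta cell and 2 of 17 endothelial genes with negative differences and 1 of 14 duct genes with a positive one, beside 4.26% of all tested probes. Positive differences were found for 21 of 21 macrophage and dendritic cell genes, 7 of 7 erythroid and platelet genes and 13 of 15 lymphocyte genes. Over all tested probes 49.3% were positive. Genes of 1 list are not independent of one another, and 0 of these had an unadjusted limma p under 0.05. The mean level of each of these lists overlapped between the groups. In such bulk samples, fewer cells of a type and less RNA per cell cannot be told apart.

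The array probes' sequences were not used here, so the sequences shown are the 250 bases before the annotated start of 2 genes whose values carry most of what follows, from RefSeq (GRCm38.p6). Anxa11 (chr14:25841905-25842154, plus strand) is the sorcin partner with the lowest p of the family, and Anxa2 (chr9:69453433-69453682, plus strand) is the member that varied most between mice. Capitals mark TATAAA and GGGCGG, searched with CCAAT on both strands, so that CCGCCC is GGGCGG read from the other strand. None of the marked stretches overlap each other.
Anxa11: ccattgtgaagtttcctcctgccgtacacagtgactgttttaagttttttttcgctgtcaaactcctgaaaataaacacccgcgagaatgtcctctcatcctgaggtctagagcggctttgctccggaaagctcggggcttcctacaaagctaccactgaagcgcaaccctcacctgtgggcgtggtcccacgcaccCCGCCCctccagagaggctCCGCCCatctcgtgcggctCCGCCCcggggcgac
Anxa2: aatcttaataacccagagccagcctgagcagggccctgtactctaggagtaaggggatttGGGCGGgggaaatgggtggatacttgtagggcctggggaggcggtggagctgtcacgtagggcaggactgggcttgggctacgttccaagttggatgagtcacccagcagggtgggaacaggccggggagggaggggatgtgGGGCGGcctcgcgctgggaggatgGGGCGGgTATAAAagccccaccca
The Anxa11 stretch held 3 GGGCGG, no TATAAA and 17 CG dinucleotides, against a median of 6 CG over 32851 promoters of the same length. The Anxa2 stretch held 3 GGGCGG, 9 CG dinucleotides and 1 TATAAA that starts 17 bases before the annotated start. Of 8 promoters matched to 6 of the members, those of Anxa1 and Anxa2 held TATAAA, a hexamer present in 12.4% of all promoters. GGGCGG was present in 32.7% of all promoters and CCAAT in 33.9%, and CCAAT was found in none of the 8. These matches describe the letters in the window and say nothing about binding.

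Of the 17 annexin probes, 11 probes of 7 genes were detected on at least 6 of the 12 arrays (detection p under 0.05) and were tested with the 18315 probes that met that rule. A probe measures hybridisation of its own sequence, so the brightness of different probes cannot be ranked and each is described on its own scale of normalized log2 intensity. In the SRI-tg10 minus Control contrast 0 of the 11 annexin probes passed a limma adjusted p of 0.05, against 0.0218% of all tested probes. At an unadjusted p under 0.05 there was 1 annexin probe, of Anxa11, against 4.26% of all tested probes. The annexin differences split into 5 positive and 6 negative values with a median of -0.03, beside 9035 positive and 9280 negative values with a median of -0.0036 over all tested probes. No annexin probe separated the groups without overlap, which 0.169% of tested probes did. On 3 annexin probes, of Anxa4, Anxa6 and Anxa11, all 6 SRI-tg10 mice lay on the same side of the Control mean, an arrangement found in 9.4% of tested probes.

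**Figure D1:**
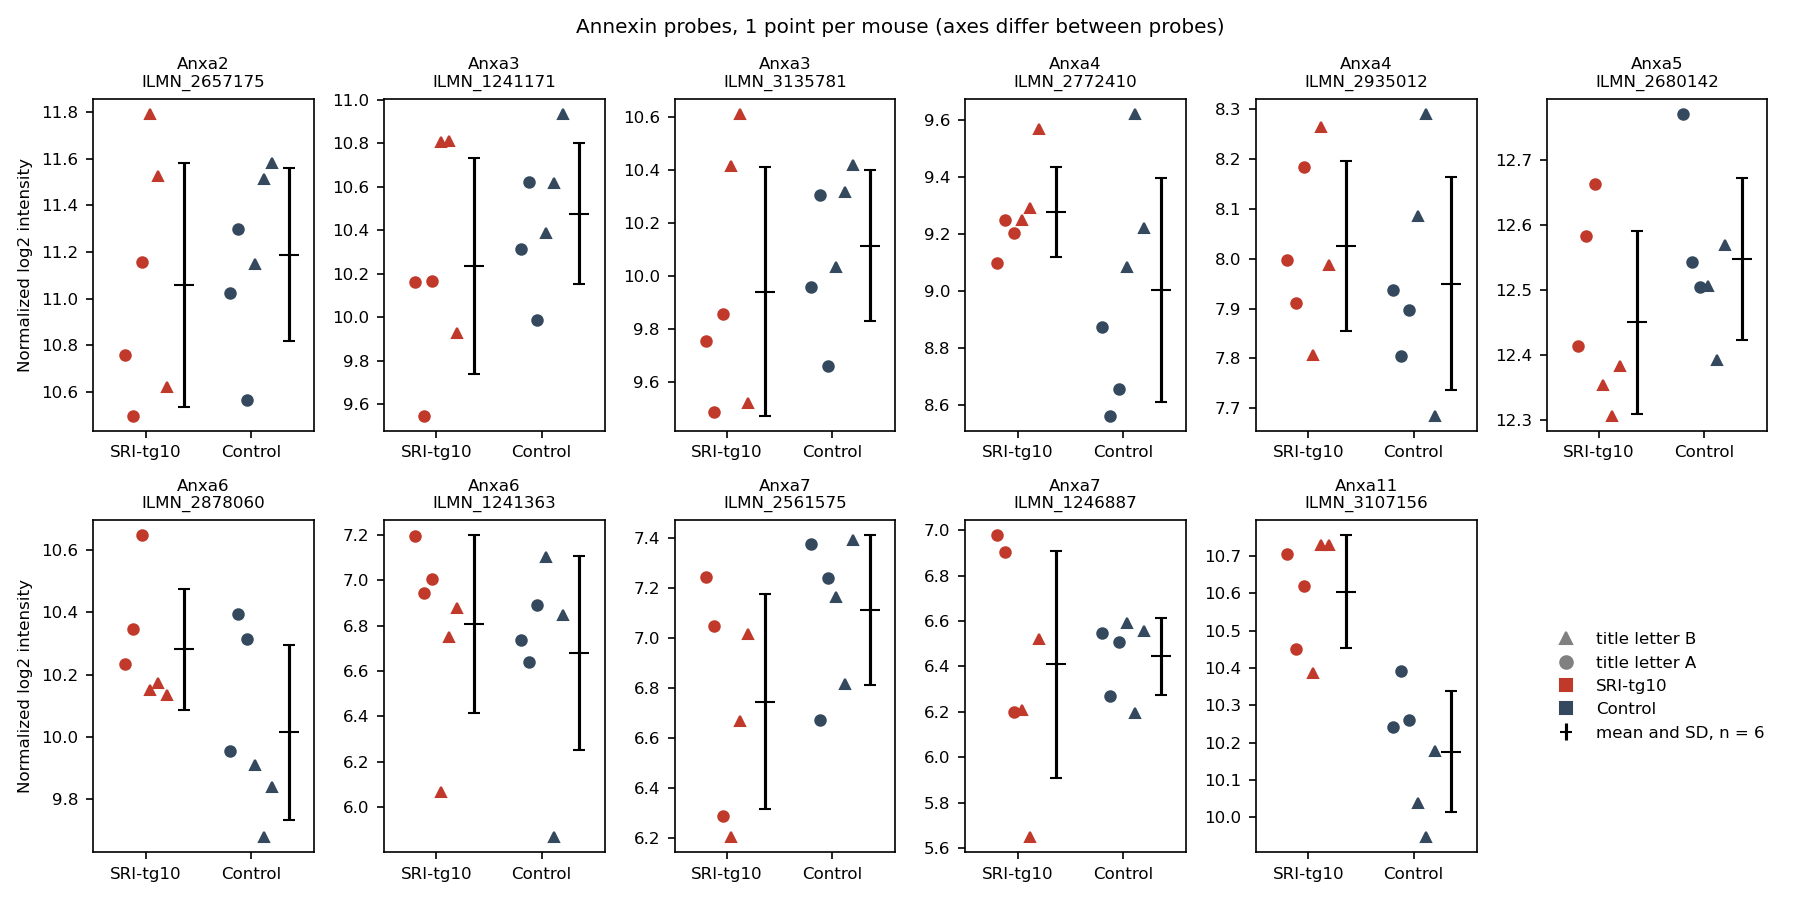
Normalized log2 intensity of the 11 detected annexin probes, 1 point per mouse, with SRI-tg10 at the left and Control at the right of each panel, triangles for title letter B, circles for letter A, and bars for the mean ± SD of 6 mice. The panels have separate vertical axes; Anxa11 is the panel with the least overlap, with 5 of 6 SRI-tg10 mice above the highest Control mouse.

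Anxa11, the first of the sorcin partners, encodes an annexin with a long N-terminal region that binds penta-EF-hand proteins. On its detected probe (ILMN_3107156) the 6 SRI-tg10 mice had a lowest level of 10.39, a median of 10.66 and a highest level of 10.73, against 9.95, 10.21 and 10.39 in the Control mice. The groups met at SRI-tg10 replicate 4 (10.386) and Control replicate 2 (10.391), and the other 5 SRI-tg10 mice lay above every Control mouse. SRI-tg10 replicate 4 is also the mouse with the lowest Sri level of its group. The next lowest Anxa11 level of that group, 10.45 in replicate 2, went with a Sri level of 14.87. A relation of Anxa11 to the Sri level was not tested. The Anxa11 means were 10.60 ± 0.15 in SRI-tg10 and 10.18 ± 0.16 in Control islets (SD, n = 6 each), a difference of 0.43 ± 0.11 (SE, 95% interval 0.18 to 0.67), or 1.34-fold. This was the lowest p of the annexin probes, 0.00236, and rank 23 of 18315, yet the limma adjusted p was 0.922, so the difference did not pass. Within letter A the difference was 0.29 ± 0.14 and within letter B 0.56 ± 0.19 (SE, 3 mice per group each), and the test of the difference between letters gave 0.27 ± 0.22 with an unadjusted limma p of 0.243.

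The size of the Anxa11 difference moved little when single mice were left out. It lay between 0.38, without Control replicate 5, and 0.47, without SRI-tg10 replicate 4. Its limma adjusted p never went below 0.678 in these repeats or in the other settings, which gave 0.29 to 0.56. With each array scaled to a common median in place of quantile normalization it was 0.41 ± 0.23 (SE), and the unadjusted p was then no longer under 0.05. The authors' deposited table lists this probe with a log2 fold of 0.405 and an adjusted p of 0.767. A second Anxa11 probe (ILMN_2666669) was detected on 2 SRI-tg10 and 3 Control arrays at levels of 4.87 to 5.92, with a difference of -0.24 ± 0.18 (SE, limma adjusted p = 0.933) when probes detected on at least 1 array were included, and the remaining one (ILMN_1225258) on 0 of 12 arrays. The Anxa11 result thus stands on 1 probe.

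**Figure D2:**
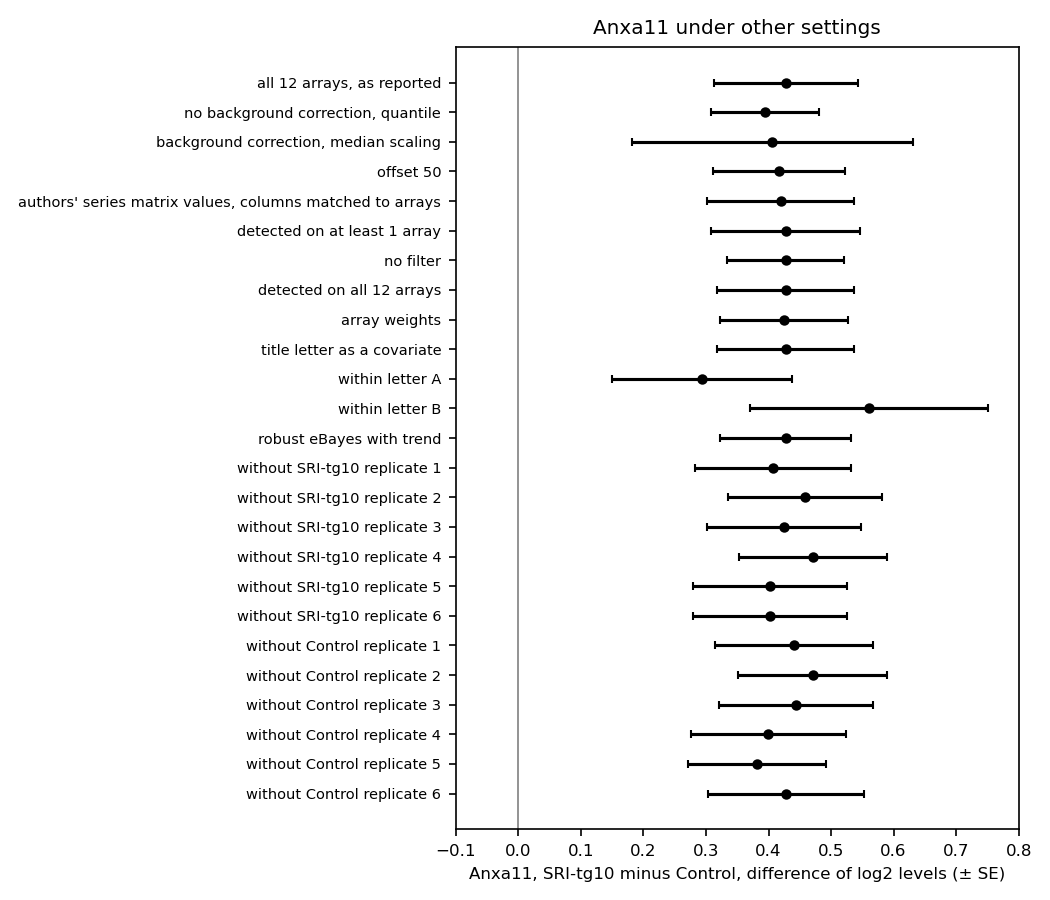
The Anxa11 difference, SRI-tg10 minus Control, in log2 units (horizontal axis) under each processing setting and with each mouse left out (vertical axis), with bars for ± SE. Every estimate is above 0, from 0.29 within letter A to 0.56 within letter B.

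Anxa7 encodes the other sorcin partner, an annexin known for calcium-dependent membrane fusion and first described as synexin. Its brighter probe (ILMN_2561575) had a lowest level of 6.20, a median of 6.84 and a highest level of 7.24 in SRI-tg10 mice, against 6.67, 7.20 and 7.39 in Control mice. The groups overlapped, although SRI-tg10 replicates 3 and 4 lay below every Control mouse and replicate 5 was level with the lowest of them. The means were 6.75 ± 0.43 in SRI-tg10 and 7.11 ± 0.30 in Control islets (SD, n = 6 each), a difference of -0.36 ± 0.20 (SE, 95% interval -0.80 to 0.07, limma adjusted p = 0.922). Without background correction that difference was -0.17, and the authors' deposited table lists -0.2. On the second probe (ILMN_1246887) the means were 6.41 ± 0.50 and 6.44 ± 0.17 in SRI-tg10 and Control islets, and the difference was -0.03 ± 0.20 (SE). That value had no settled sign, being 0.25 within letter A and -0.32 within letter B, where the first probe gave -0.24 and -0.49. The 2 probes correlated at r = 0.63 over the 12 mice. Neither has an updated symbol in the authors' deposited table, a state shared by 13.7% of tested probes. The Anxa7 probe whose definition names the annexin A7 mRNA (ILMN_2617956) was detected on 0 of 12 arrays, so these levels of Anxa7 carry the doubt of the older annotation.

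Anxa2 and Anxa1 encode annexins that bind S100 proteins through their N termini. Annexin A2 forms a heterotetramer with S100A10 and recruits the scaffold protein AHNAK to the plasma membrane. Anxa2 (ILMN_2657175) had a lowest level of 10.50, a median of 10.96 and a highest level of 11.79 in SRI-tg10 mice, against 10.57, 11.22 and 11.58 in Control mice. The SRI-tg10 range covered the Control range on both sides. The difference was -0.13 ± 0.24 (SE, 95% interval -0.65 to 0.39, limma adjusted p = 0.953). It was -0.28 without SRI-tg10 replicate 4 and -0.02 without SRI-tg10 replicate 2. The within-group SD of Anxa2, 0.45, was larger than that of 94.4% of the 999 tested probes within 0.5 of its level.

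Anxa1, whose product mediates anti-inflammatory effects of glucocorticoids in leukocytes, was near the detection limit. Its 1 probe (ILMN_1259252) was detected in 2 of 6 SRI-tg10 mice and 1 of 6 Control mice, at levels of 4.63 to 5.95 over all 12. The highest level belonged to Control replicate 6, and the next to SRI-tg10 replicate 3 at 5.62. It missed the rule for testing. With every probe detected on at least 1 array included (26560 probes), the means were 5.17 in SRI-tg10 and 5.06 in Control islets and the difference was 0.11 ± 0.22 (SE, limma adjusted p = 0.959).

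Anxa3, which encodes an annexin known from neutrophil granules, had a pair of detected probes. The brighter (ILMN_1241171) gave a lowest level of 9.55, a median of 10.16 and a highest level of 10.81 in SRI-tg10 mice, against 9.99, 10.50 and 10.94 in Control mice. The difference was -0.24 ± 0.22 (SE, 95% interval -0.72 to 0.24, limma adjusted p = 0.922), and the other probe (ILMN_3135781) gave -0.17 ± 0.21. Without SRI-tg10 replicate 5 the values were -0.36 and -0.31, and without SRI-tg10 replicate 2 they were -0.10 and -0.08. In both groups the mice were widely spread, with within-group SDs of 0.42 and 0.39 that exceeded those of 91.5% and 88.7% of tested probes of like level. The 2 probes moved together over the mice (r = 0.964), more closely than the probe pairs of Anxa7 (0.63), Anxa4 (0.461) and Anxa6 (0.426).

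Anxa4 encodes an annexin known from secretory epithelia. On its brighter probe (ILMN_2772410) the SRI-tg10 mice lay close together, with a lowest level of 9.10, a median of 9.25 and a highest of 9.57, against 8.56, 8.98 and 9.62 in the Control mice. All 6 SRI-tg10 mice were above the Control mean, and Control replicate 5 was above all of them. The difference was 0.27 ± 0.17 (SE, 95% interval -0.09 to 0.64, limma adjusted p = 0.922). It was 0.49 ± 0.15 within letter A and 0.06 ± 0.21 within letter B, and the difference between letters itself was -0.43 ± 0.25 with an unadjusted limma p of 0.114. The second probe (ILMN_2935012) gave 0.08 ± 0.13, and another (ILMN_2552516) was detected on 0 of 12 arrays.

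Anxa5 encodes the annexin used as a probe for phosphatidylserine on dying cells. Its probe (ILMN_2680142) varied little: SRI-tg10 mice had a lowest level of 12.31, a median of 12.40 and a highest of 12.66, against 12.39, 12.53 and 12.77 in Control mice. The difference was -0.10 ± 0.11 (SE, 95% interval -0.33 to 0.13, limma adjusted p = 0.927), the narrowest interval of the 11 probes. Without Control replicate 1 the value was -0.05. Of all the detected annexin probes this had the smallest within-group SD, 0.13. Among tested probes of like level, 26.2% had a smaller one, a share that was lower for Anxa4 ILMN_2935012 (11.6%) and Anxa11 (20.3%).

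Anxa6 encodes an annexin with a duplicated core, found at the plasma membrane and on endosomes. On its brighter probe (ILMN_2878060) the SRI-tg10 mice had a lowest level of 10.13, a median of 10.20 and a highest of 10.65, against 9.68, 9.93 and 10.40 in the Control mice. Every SRI-tg10 mouse was above the Control mean of 10.02, although 2 Control mice, both of letter A, exceeded the SRI-tg10 median. The difference was 0.27 ± 0.15 (SE, 95% interval -0.05 to 0.58, limma adjusted p = 0.922), with 0.19 ± 0.19 within letter A and 0.34 ± 0.17 within letter B. The dimmer probe (ILMN_1241363), which has no updated symbol in the authors' deposited table, gave 0.13 ± 0.22, and without Control replicate 5, its lowest Control mouse at 5.87, the value was -0.04. The remaining probe (ILMN_1256492) was detected on 0 of 12 arrays.

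The authors' deposited table contains 13 of the annexin probes and lists 0 of them past an adjusted p of 0.05, as against 5 of its 26560 probes. Over the 11 detected annexin probes, 10 carry the same sign there as here, Anxa7 ILMN_1246887 being the exception. For Anxa4 ILMN_2772410 the authors' deposited table lists a log2 fold of 0.337 with an unadjusted p of 0.00875, and for Anxa3 ILMN_1241171 it lists -0.404 with an unadjusted p of 0.0501. No source used here gives the model behind that table, and its direction was read from the intensities.

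The title letter was compared in the same way, letter B minus letter A with the group in the model. Of the 11 annexin probes 4 had an unadjusted limma p under 0.05, against 16.8% of tested probes, and 0 passed the adjusted threshold, against 0.0928%. The count of 4 was 2 without any 1 of SRI-tg10 replicates 2, 4 and 5 or Control replicates 1, 3 and 6. It was 6 without Control replicate 4 and 6 without background correction. Anxa2 averaged 11.36 ± 0.42 in letter B and 10.88 ± 0.33 in letter A (SD, n = 6 each), a difference of 0.48 ± 0.21 (SE, limma adjusted p = 0.274). Anxa3 ILMN_1241171 differed by 0.45 ± 0.19 (limma adjusted p = 0.274) and Anxa4 ILMN_2772410 by 0.40 ± 0.13 (limma adjusted p = 0.193). Anxa6 ILMN_2878060 ran the other way, with 9.98 ± 0.20 in letter B and 10.32 ± 0.22 in letter A and a difference of -0.33 ± 0.11 (SE, limma adjusted p = 0.2). In size these letter differences exceeded the group difference for Anxa2, Anxa3, Anxa4 and Anxa6 on these probes, and that of Anxa11 (-0.11 ± 0.11) was smaller. Whether the 2 differences of a probe differ in size was not tested. The interaction of group and letter had an unadjusted limma p under 0.05 for 0 annexin probes, against 2.33% of tested probes, and passed the adjusted threshold for 0 annexin probes, against 0% of tested probes.

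**Figure D3:**
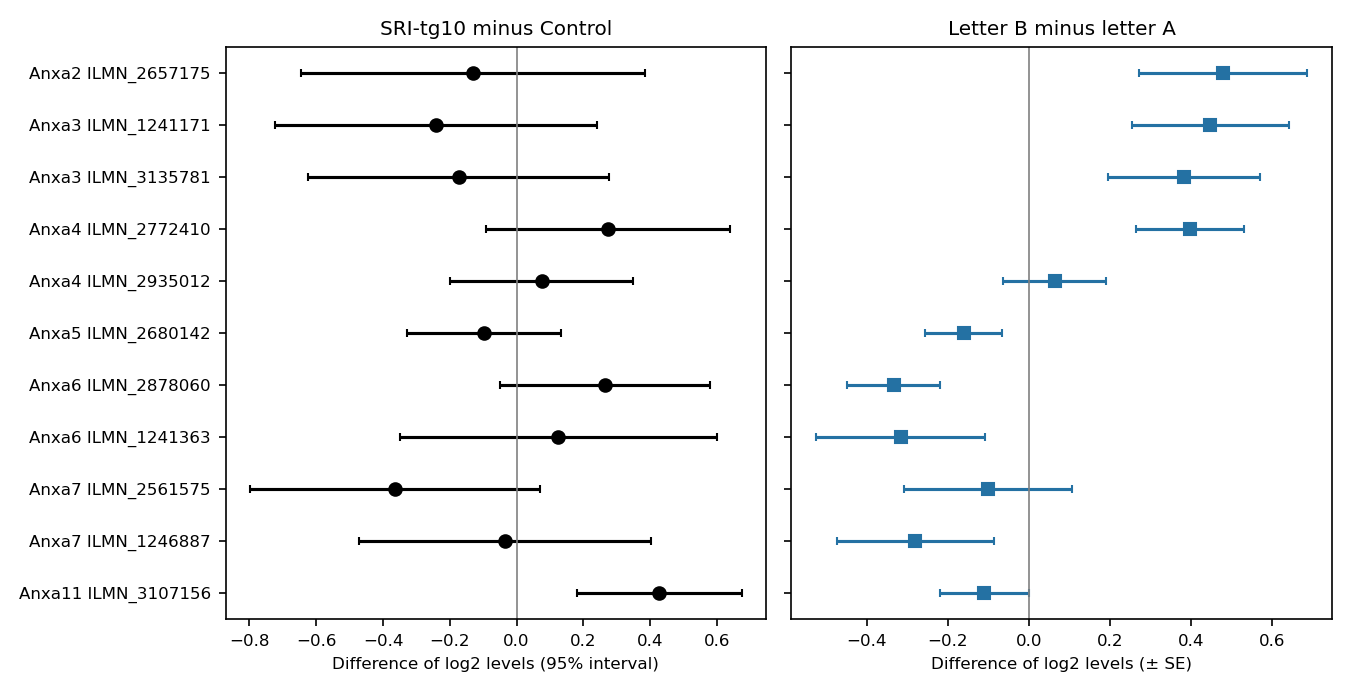
Left, SRI-tg10 minus Control difference of log2 levels for the 11 annexin probes with 95% intervals; right, letter B minus letter A with ± SE. At the left the interval of Anxa11 alone lies wholly above 0. Bars of ± SE are narrower than 95% intervals, so the panels cannot be compared by which bars reach 0. At the right the probes with an unadjusted limma p under 0.05 were Anxa2, Anxa3 ILMN_1241171, Anxa4 ILMN_2772410 and Anxa6 ILMN_2878060. After adjustment 0 of the 11 passed.

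Among the brightest probes of the genes, those of Anxa2 and Anxa3 had the largest within-group SDs. Over the 12 mice they correlated at r = 0.94 (Spearman rho = 0.944), with a permutation p of 3e-05 and an adjusted p of 0.00063 over the 21 pairs of annexin genes. Without the 2 mice farthest from the median, r was 0.944. It was 0.952 within letter B and 0.869 within letter A, and 0.943 among SRI-tg10 mice and 0.96 among Control mice. The second Anxa3 probe gave r = 0.946 with Anxa2. Of the 18314 other tested probes, 3 had a higher r with Anxa2 than the first Anxa3 probe had, and 10.2% exceeded 0.5. The 2 probes share arrays and normalization, and genes are not independent of one another.

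**Figure D4:**
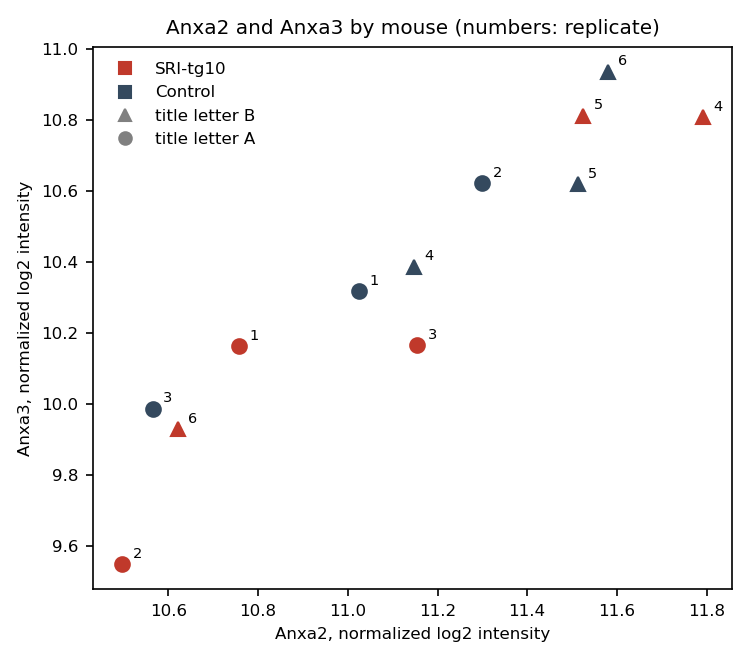
Anxa2 (horizontal axis) against Anxa3 (vertical axis), both in normalized log2 intensity on their brightest probes, 1 numbered point per mouse, SRI-tg10 in red and Control in dark blue, triangles for letter B and circles for letter A. Mice of both groups lie along the same line, from SRI-tg10 replicate 2 at the lower left to SRI-tg10 replicates 4 and 5 and Control replicate 6 at the upper right.

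No other pair of annexin genes passed the adjusted threshold. The next was Anxa6 with Anxa11 (r = 0.659, rho = 0.602, permutation p = 0.0194, adjusted p = 0.204), whose r was 0.399 without the 2 farthest mice and -0.0883 among SRI-tg10 mice against 0.863 among Control mice. The sorcin partners Anxa7 and Anxa11 gave r = -0.282 with a permutation p of 0.371.

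Known partners of annexin A2 were set beside it, a choice made after their values had been seen, so these relations are given as a description with no test. S100a10, the light chain of the annexin A2 tetramer, correlated with Anxa2 at r = 0.763 (rho = 0.825). Without the 2 farthest mice r was 0.668, and it was 0.529 within letter B and 0.758 within letter A. Ahnak gave r = 0.79 (rho = 0.832), 0.662 without the 2 farthest mice, 0.76 within letter B and 0.848 within letter A. Like Anxa2, neither differed between groups beyond its spread: the SRI-tg10 minus Control value was 0.15 ± 0.30 for S100a10 and 0.06 ± 0.27 for Ahnak (SE).

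Islet preparations contain duct, stromal, vascular and blood cells beside endocrine cells. The brightest probe of each of the 7 annexin genes was therefore set against the mean centred level of marker lists of 9 cell types, which makes 63 relations. After adjustment 0 passed (permutation tests, Benjamini-Hochberg), and 10 had an unadjusted p under 0.05. The share of all tested probes that relate to these scores was not computed, so the 10 cannot be called particular to annexins. They are also not independent, since Anxa2 and Anxa3 correlated at r = 0.94. Anxa2 and the duct score gave r = 0.715 (rho = 0.727, permutation p = 0.0118, adjusted p = 0.202), with 0.568 without the 2 farthest mice, 0.881 within letter B and 0.603 within letter A. Anxa3 and the duct score gave r = 0.657 (adjusted p = 0.202). With the beta cell score the values were negative, -0.654 for Anxa2 and -0.68 for Anxa3, and within letter A they were 0.0064 and -0.265. Anxa5 ran the other way with the beta cell score, at r = 0.668, and without the 2 farthest mice it was 0.434. Anxa4 gave r = 0.667 with the erythroid and platelet score and 0.584 with the mesothelial score. Without the 2 farthest mice these were 0.361 and 0.468. The mesothelial score rests on 3 genes, and its rho with Anxa4 was 0.413. Of those genes, Upk3b was detected in 3 of 6 mice of each group, and Krt19 is also in the duct list.

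The stellate cell and fibroblast score turned on Control replicate 5. Over all 12 mice it gave r = 0.599 with Anxa2 and 0.607 with Anxa3, and without that mouse 0.922 (adjusted p = 0.0063) and 0.858 (adjusted p = 0.0362, permutation tests). No other mouse left out gave a relation that passed. These adjusted p-values cover the 63 relations of that run and not the choice of the mouse, so they are given as a description. The Anxa2 and Anxa3 values are not separate results, as the 2 genes moved together. With the letter and group means subtracted from both measures, 2 relations passed, Anxa2 with the duct score (r = 0.836, adjusted p = 0.04) and Anxa3 with the duct score (r = 0.824, adjusted p = 0.04). The permutation p of such residuals takes no account of the degrees of freedom that the subtraction used.

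Neither of these scores separated the groups. The duct score, over 14 genes of which 8 had a positive group difference, ran from -0.29 to 0.20 in SRI-tg10 and from -0.20 to 0.21 in Control mice. The stellate score, over 20 genes of which 12 had a positive difference, ran from -0.52 to 0.49 in SRI-tg10 and from -0.78 to 0.62 in Control mice. Defining markers of both were measured. Krt19 of duct cells, detected in 5 of 6 mice of each group, averaged 6.03 in SRI-tg10 and 5.85 in Control islets. Dcn of fibroblasts averaged 11.80 and 11.56 in the same order. Other genes went the other way, with negative differences for 6 genes of the duct list and 8 of the stellate list. The duct keratins Krt7, Krt8 and Krt18 gave -0.05, -0.09 and -0.20. The part of duct cells and fibroblasts in the annexin levels was not tested.

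**Figure D5:**
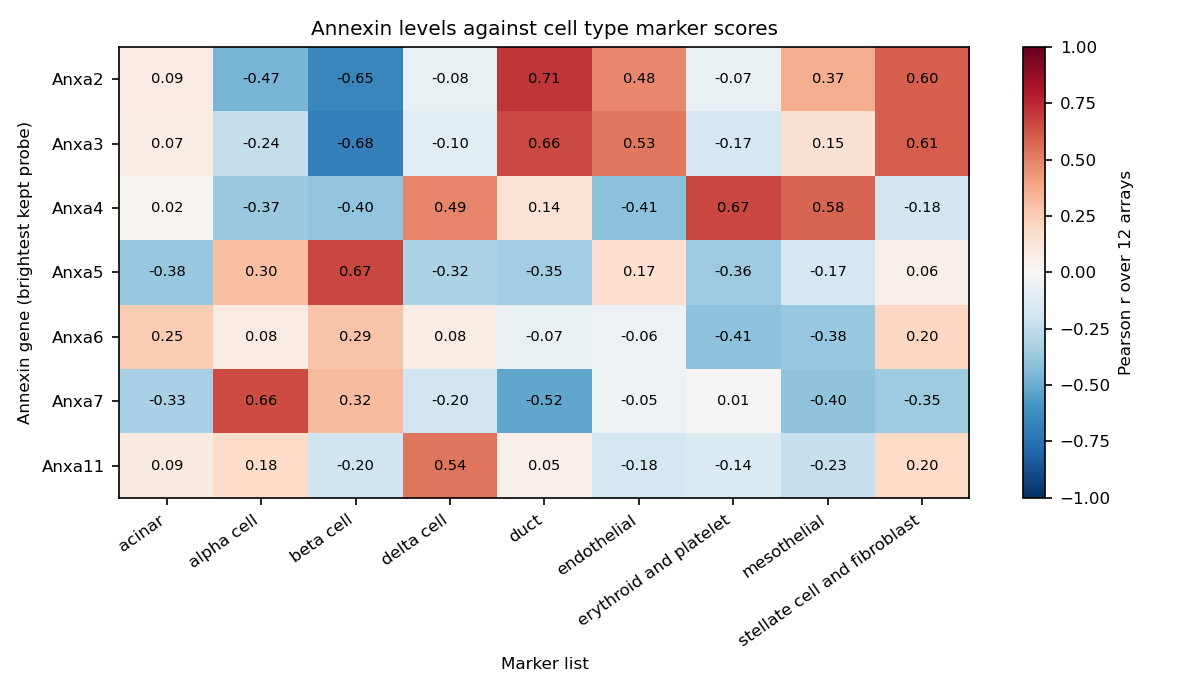
Pearson r over 12 mice between each annexin gene's brightest detected probe (rows) and the score of each cell type marker list (columns), in colour from blue (negative) to red (positive). Anxa2 and Anxa3 share their pattern, with positive values for the duct and stellate lists and negative ones for the beta cell list; none of the 63 values passed the adjusted threshold.

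Anxa11 had no relation of that size: its highest r was 0.537, with the delta cell score (permutation p = 0.0726). Anxa7 gave r = 0.655 with the alpha cell score, and 0.399 without the 2 farthest mice. Scores were set apart by the largest gap between mice. It took up 0.476 of the range for macrophages and dendritic cells and 0.254 for lymphocytes. The lymphocyte case was marginal, since endothelial scores, with 0.235, were not set apart. Macrophage and dendritic cell scores, and lymphocyte scores, fell into separate sets of 7 and 5 mice, so no r over all mice is given for them. The 5 mice with the higher scores were SRI-tg10 replicates 3, 4 and 5 and Control replicates 2 and 6, and the same mice had positive stellate scores of 0.25 to 0.62, Control replicate 4 being the other mouse above 0 (0.20). Their Anxa2 levels were 11.16, 11.79 and 11.53 in those SRI-tg10 mice and 11.30 and 11.58 in those Control mice, and the other 7 mice ran from 10.50 to 11.51. Their Anxa3 levels on the brighter probe were 10.17, 10.81 and 10.81 in those SRI-tg10 mice and 10.62 and 10.94 in those Control mice, and the other 7 ran from 9.55 to 10.62. The part of immune cell RNA in the shared pattern of Anxa2 and Anxa3 was not tested. Within the set of 7, 0 of 14 relations passed and 0 had an unadjusted permutation p under 0.05. The one nearest to it was Anxa11 with the macrophage and dendritic cell score (r = 0.753, permutation p = 0.0501, adjusted p = 0.701). Its rho was 0.607 with a permutation p of 0.168. Both groups are in that set, with macrophage scores of -0.63 to -0.18 in its SRI-tg10 and -0.73 to -0.56 in its Control mice. Anxa11 was 10.45 to 10.73 and 9.95 to 10.26 in the same order, so this r cannot be told apart from the group difference. Over all 12 mice the macrophage score ran from -0.63 to 0.85 in SRI-tg10 and from -0.73 to 0.98 in Control mice. It had positive group differences in 21 of its 21 measured genes, none past the threshold, beside positive ones in 49.3% of all tested probes. Its part in the Anxa11 difference was not tested.

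Other genes with patterns across mice like those of each annexin were ranked by Pearson r over the 12 arrays. Among the nearest to Anxa2 were B2m (0.953), which encodes the light chain of class I major histocompatibility molecules, and Oat (0.935), which encodes ornithine aminotransferase. Anxa3 was followed by Rpl23 (0.946), Enpp1 (0.93) and Fam49a (0.921). For Anxa11 the nearest were Ssbp4 (0.925), Golga2 (0.922), which encodes a Golgi matrix protein, and Lbh (0.914). For Anxa7 they were Myt1l (0.934), Unc13b (0.925), which encodes a vesicle-priming protein, and Srsf11 (0.912). The highest value of all belonged to Anxa6 and Prkaca (0.97), the catalytic subunit alpha of protein kinase A, and Fkbp1a (0.961) was also among the nearest to Anxa6. Anxa4 was nearest to Cenpq (0.887), Aptx (0.879) and Actl6a (0.877), and Anxa5 to Dgcr2 (0.887), Shkbp1 (0.833) and Ubr7 (0.823). Each was picked as a maximum over all tested probes and is given as a description.

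Genes around the annexins were read from lists of partners. Among penta-EF-hand proteins, the family of sorcin, 1 of 6 measured genes passed the adjusted threshold, Sri itself. Gca, which encodes the sorcin-related grancalcin, averaged 8.03 ± 0.38 in SRI-tg10 and 8.49 ± 0.37 in Control islets, a difference of -0.46 ± 0.20 (SE, limma adjusted p = 0.922). Of 5 S100 genes 0 passed in either direction, S100a6 giving 0.31 ± 0.28 and S100a4, detected in 4 of 6 mice of each group, 0.14 ± 0.26. Of 11 genes for ligands, receptors and scaffolds of annexins 0 passed, with -0.29 ± 0.20 for Plg (plasminogen), detected in 2 of 6 SRI-tg10 and 4 of 6 Control mice, and -0.37 ± 0.29 for Cav1 (caveolin 1). Of 13 genes for membrane repair and the ESCRT machinery 0 passed. Ehd1, an endocytic recycling ATPase, gave the lowest unadjusted p of that list (0.0167, limma) with 6.62 ± 0.29 in SRI-tg10 and 5.98 ± 0.56 in Control islets, and Chmp3 gave -0.23 ± 0.14. At an unadjusted limma p under 0.05 these 4 lists held Sri and Ehd1 with positive and Gca with negative values, beside 4.26% of all tested probes.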

How the data were processed

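Islet RNA of 12 mice was measured on Illumina bead arrays, 1 array per mouse. GenomeStudio is named in the submitters' processing notes, with no version. The deposited table holds, per the file headers, an intensity on the linear scale and a detection p-value for each probe and array. From the values, the deposited intensity was neither normalized nor background-subtracted, with medians of 126.6 to 166.6. The authors deposited a comparison table with log2 fold changes, a score and p-values, and a series matrix of log2 values. In that matrix 10 of 12 columns match another array than the one they are labelled for (r with the matched array at least 0.9897), so it served only as an alternative with columns matched to arrays, chosen after seeing the data.

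Intensities were normalized with neqc in limma 3.58.1 (R 4.3.3; offset 16, negative controls inferred from the detection p-values). A probe was kept where at least 6 arrays gave it a detection p under 0.05, and groups were compared with lmFit and eBayes, with Benjamini-Hochberg adjustment over 18315 probes and a threshold of 0.05. The fit was also run on simulated data with independent probes, which does not test the differences reported here. The title letter, and its interaction with the group, were fitted as further terms. Correlations across mice were tested with 100000 permutations, two-sided, whose smallest p is 1e-05. A marker score is the mean of the genes' log2 levels, each centred over the 12 arrays. The number of arrays limits the precision.

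The members, the gene lists, the marker lists and the tests were chosen with earlier results of these data known. The rule for names was every member probe, the 3 nearest genes by r, the 2 genes of each partner list with the smallest p, and Sri. A few nearest genes are not reported here. S100a10, Ahnak, and the marker genes Ins1, Cela3b, Krt19, Krt7, Krt8, Krt18 and Dcn were named after their values had been seen. The rule that set the immune scores apart was also made after the values had been seen. Alternatives covered background correction, normalization, offset, filter, array weights, spread, title letter and each mouse left out. Promoter sequences came from a RefSeq table and coordinates are of GRCm38.p6.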

Additional observations from a re-analysis of the deposited data

Results flagged for a closer look

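A mouse stood apart from the other 5 of its group in 5 of 44 sets of 6 levels examined, by a gap that takes up most of the group's range. The nominal rate of the rule is about 1 in 20, and its rate in these data was not measured. None of the 5 sets was of an annexin of the main set. Sri (ILMN_2600537) was lowest in SRI-tg10 replicate 4, at 12.718, against 14.814 to 14.958 in the other SRI-tg10 mice. Anxa13, which encodes an intestinal and renal annexin, was highest in SRI-tg10 replicate 4, at 8.4629, against 5.6245 to 6.163 in the others of its group. Anxa13 was also highest in Control replicate 5, at 8.2802, against 5.4367 to 6.1509 in the other Control mice. Chmp3 was highest in Control replicate 5, at 9.2117, against 8.5632 to 8.7324 in the others. Gca was lowest in Control replicate 2, at 7.794, against 8.4496 to 8.7817 in the others.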

How the results depend on the processing

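None of the 11 annexin probes passed the adjusted threshold in any setting run, for the group, the letter or their interaction (limma). At an unadjusted p under 0.05 the group contrast held 0 to 3 of them and the letter contrast 2 to 6. No paired analysis was possible because the replicate numbers were given in accession order and tie no mice together. The dimmer Anxa7 probe (ILMN_1246887) changed sign to 0.0002978 without background correction, 0.01845 with array weights and 0.253 within letter A, and ranged from -0.1481 to 0.1177 with each mouse left out. Within letter B, Anxa4 ILMN_2935012 turned to -0.0007861 and Anxa6 ILMN_1241363 to -0.0411, and this Anxa6 probe ranged from -0.03699 to 0.2736 with each mouse left out. Letter B minus letter A ranged from -0.2136 to 0.00803 for Anxa7 ILMN_2561575 and from -0.00397 to 0.1305 for Anxa4 ILMN_2935012. The interaction ranged from -0.1803 to 0.405 for Anxa2 and from -0.01283 to 0.5315 for Anxa3 ILMN_3135781. The count of annexin and cell type relations past the threshold was 0, was 2 with letter and group means subtracted, and ranged from 0 to 2 with each mouse left out, the 2 coming without Control replicate 5. The cause of these shifts was not tested. Over all probes the group contrast called 4, between 3 and 5 in other settings, and 0 within letter B.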

Other observations

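Anxa13 was the 1 annexin outside the main set with a detected probe. Its SRI-tg10 mice averaged 6.30 ± 1.08 and its Control mice 6.33 ± 0.99 (SD, n = 6 each), a difference of -0.02 ± 0.52 (SE). Leaving aside the highest mouse of each group, the levels ran from 5.62 to 6.16 in SRI-tg10 and from 5.44 to 6.15 in Control mice. Cav1, which encodes the caveolar scaffold of endothelial and stromal cells, had a letter B minus letter A difference of 0.88 ± 0.16 (SE, limma adjusted p = 0.0656), and S100a10 one of 0.83 ± 0.20 (SE, limma adjusted p = 0.131). Sec31a, a coat protein of vesicles that leave the endoplasmic reticulum, gave -0.51 ± 0.12 (SE, limma adjusted p = 0.131) in that comparison. These genes were picked after their values were seen.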
